A study of Mus musculus with 5 samples.

Results

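The bin pairs described here bridge the domain border beside the Sonic hedgehog gene Shh on mouse chromosome 5. They were chosen by position around a border that had itself been selected on low contact in these same maps. Each pair joins a 5 kb bin between 28,345,001 and 28,445,000, on the side of Rbm33, with one between 28,450,001 and 28,550,000, on the side of Shh (mm10 coordinates). The border bin between them, which starts at 28,445,001, belongs to neither side. With 20 bins on each side there are 400 such pairs, 10 to 200 kb apart, of 155,961 pairs in the captured region. Their low level is therefore part of what chose them and is given as a description.

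Topologically associating domains are stretches of chromosome whose parts touch one another more often than they touch neighbouring stretches. At many borders the protein CTCF is bound and halts the cohesin complex as it extrudes loops of chromatin, so that few loops pass from one domain into the next. Shh encodes a secreted signal that patterns the limb, and its distant limb enhancer lies in Lmbr1, at the far end of the Shh domain. Rbm33 encodes an RNA-binding protein and lies on the other side of the border from Shh.

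Capture Hi-C counts ligated pairs of DNA fragments after enrichment for a chosen region, here in limb buds of mouse embryos at stage E10.5. The 5 mutant genotypes were homozygous and had 1 library each. Embryos of intraTAD2, intraTAD3 and intraTAD2-i4CTCF came from mating. Those of intraTAD2-2xBorCTCF and intraTAD2-1xBorCTCF came from tetraploid aggregation, which builds the embryo from cultured embryonic stem cells. The last 3 genotypes carry intraTAD2 in their names and are written below as i4CTCF, 2xBorCTCF and 1xBorCTCF. Neither the sequence changes behind the names nor the number of stem cell clones was stated in the labels. A further map, named wild type, belongs to no sample, and its values are the authors' own. Ratios to wild type thus also carry the origin of that map. For 2xBorCTCF and 1xBorCTCF, genotype and the way the embryos were made cannot be told apart.

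The maps held 1,121,373 (2xBorCTCF) to 2,942,790 (intraTAD2) recovered contacts, that is ligated pairs before balancing. Of all bin pairs, 72.0% to 88.1% were listed with a value. The bin at 28,485,001 had almost no contacts in any map and was left out, so that 380 of the 400 pairs and 39 of the 40 bins were used. To remove the decay of contact with distance, each balanced value was set relative to the map's own mean for bins that far apart, so that 1 is the average at a distance. The 95% intervals state counting error only, since no genotype had a second library and no test was possible. A depth-weighted contact, the sum of the contacts over the sum of those expected from distance and bin factors, is given beside the mean, because in the mean a pair of poorly covered bins counts as much as any other.

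Contact across the border was 0.478 of the average in wild type (interval 0.450 to 0.506, 3977 contacts). In i4CTCF it was 0.482 (0.452 to 0.511, 2883 contacts), in intraTAD2 0.453 (0.437 to 0.469, 7807 contacts) and in intraTAD3 0.479 (0.461 to 0.498, 6826 contacts). In 1xBorCTCF it was 0.515 (0.490 to 0.540, 5287 contacts), and in 2xBorCTCF 0.564 (0.510 to 0.618, 2810 contacts). The first 4 maps lay close together, and both maps of tetraploid-derived embryos lay above them. Depth-weighted contact gave the same split with a narrower range, from 0.458 in wild type, 0.460 in intraTAD2, 0.473 in i4CTCF and 0.476 in intraTAD3 to 0.505 in 1xBorCTCF and 0.513 in 2xBorCTCF. The median bin pair was 0.451 to 0.463 in the first 4 maps, 0.494 in 1xBorCTCF and 0.502 in 2xBorCTCF. In every map the window stayed below the average at its distance.

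**Figure D1:**
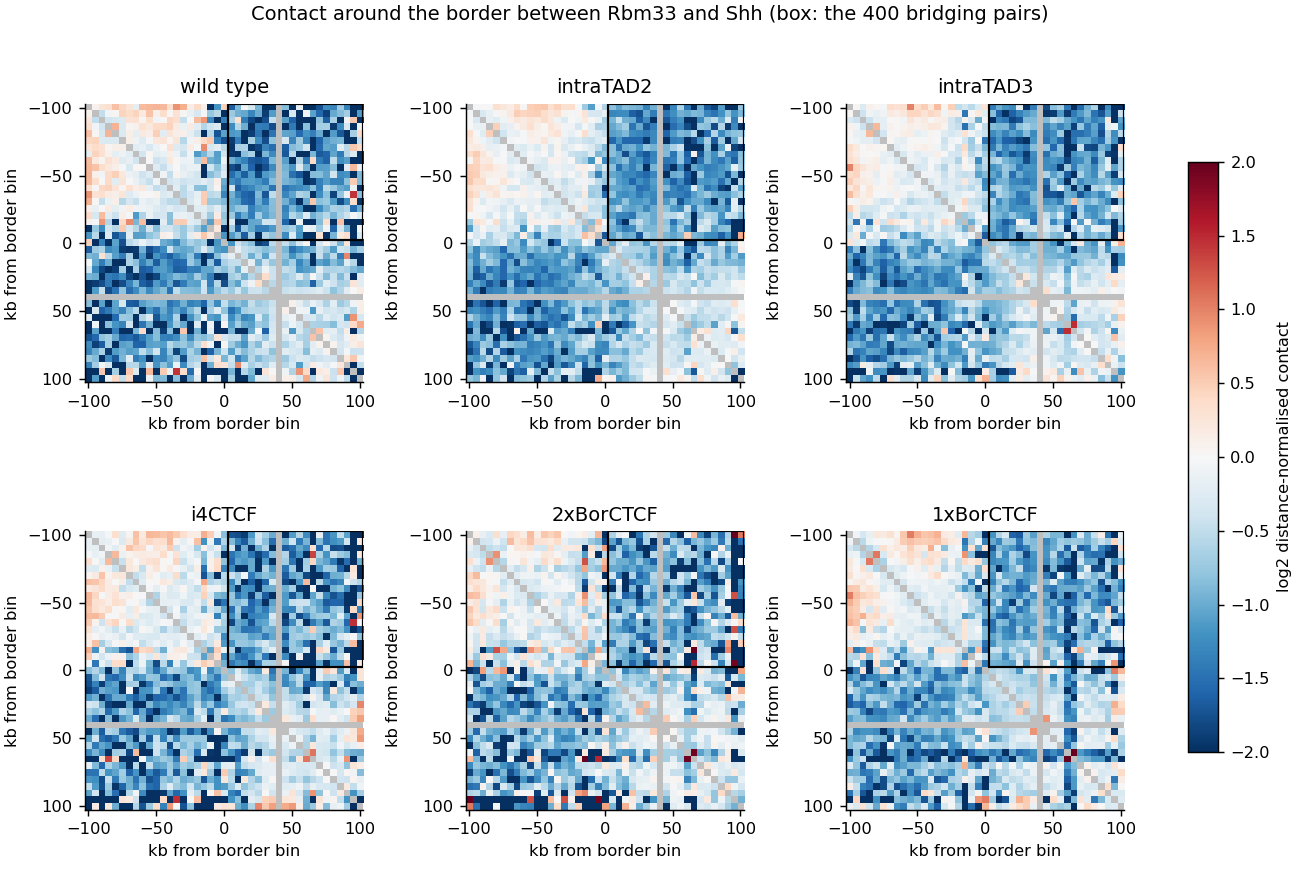
Log2 distance-normalised contact of all bin pairs within 100 kb of the border bin in the 6 maps, with position from the border bin in kb on both axes and the 400 bridging pairs in the box. The box is mostly blue (under the average) in every map, with single pairs above the average in red. Pairs with 0 contacts take the darkest blue, and grey marks pairs not used.

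The mean of 2xBorCTCF rested partly on thinly covered bins. A single pair, 28,430,001 with 28,510,001, had 2 contacts and a value of 7.44 there, and made up 3.47% of the window's sum. Without it the mean of 2xBorCTCF was 0.546. Of the 39 bins, 5 held under 30% of the contacts of the median bin in at least 1 map: those at 28,430,001, 28,440,001, 28,510,001, 28,540,001 and 28,545,001. Over the 288 pairs free of them the means were 0.461 in wild type, 0.468 in i4CTCF, 0.475 in intraTAD3, 0.449 in intraTAD2, 0.504 in 1xBorCTCF (0.486 to 0.522) and 0.521 in 2xBorCTCF (0.495 to 0.547). Both tetraploid-derived maps thus remained highest, with the gap between them smaller.

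Against intraTAD2, contact across the border was higher in 2xBorCTCF by a log2 ratio of 0.32 (0.17 to 0.46), or 0.16 depth-weighted (0.096 to 0.22). In 1xBorCTCF it was higher by 0.19 (0.10 to 0.27), or 0.13 depth-weighted (0.084 to 0.18). The ratio of i4CTCF to intraTAD2 was 0.088, with an interval that included 0 (-0.013 to 0.19). The interval of intraTAD3 against intraTAD2 only just excluded it, at 0.081 (0.0055 to 0.16). Both BorCTCF genotypes therefore exceeded the intraTAD2 map beyond counting error by either measure.

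Against wild type, 2xBorCTCF was higher by 0.24 (0.075 to 0.40), or 0.17 depth-weighted (0.095 to 0.23). For 1xBorCTCF the ratio was 0.11 with an interval that reached 0 (-0.0024 to 0.22), and 0.14 depth-weighted (0.082 to 0.20). The ratios of intraTAD2 (-0.078, -0.18 to 0.022), intraTAD3 (0.0036, -0.099 to 0.11) and i4CTCF (0.011, -0.11 to 0.13) to wild type all had intervals that included 0. So did that of 2xBorCTCF to 1xBorCTCF, at 0.13 (-0.026 to 0.29), or 0.024 depth-weighted (-0.042 to 0.090). These intervals show how large a difference the counts still allow and do not show that maps were alike. The 10 comparisons share maps and are not independent of one another.

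**Figure D2:**
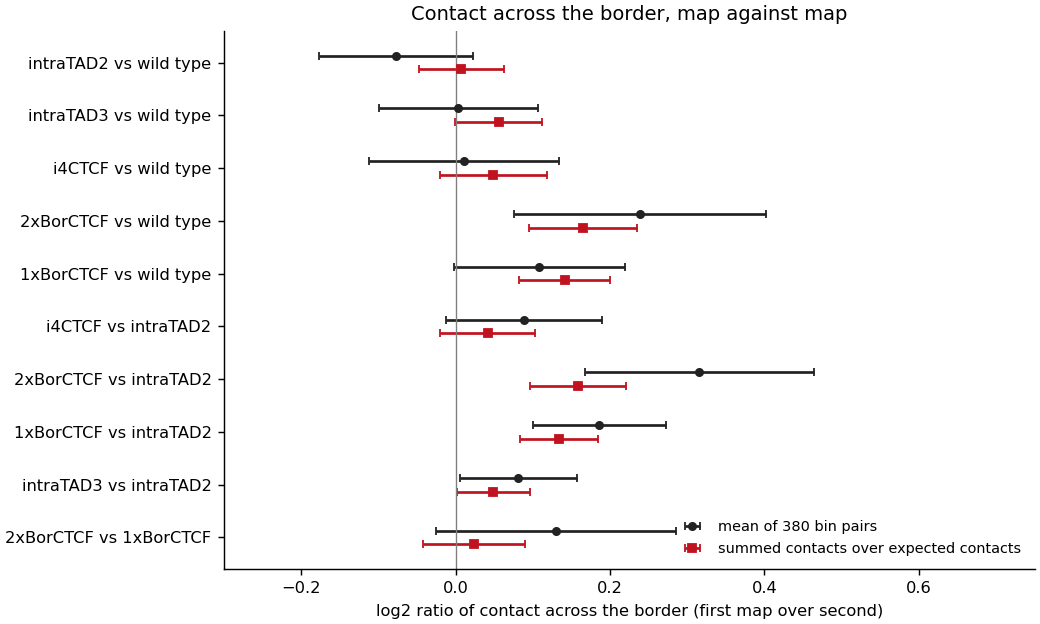
Log2 ratio of contact across the border in 10 pairs of maps, as the mean of 380 bin pairs (black circles) and depth-weighted (red squares), with 95% counting intervals. By both measures 2xBorCTCF against wild type, and 2xBorCTCF, 1xBorCTCF and intraTAD3 against intraTAD2, lie above 0.

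Intervals that exclude 0 were common along the captured region. Among 518 overlapping windows of the same shape, the border window included, the interval of the mean excluded 0 in 31.3% for 2xBorCTCF against intraTAD2, 44.6% for 1xBorCTCF, 38.8% for i4CTCF and 49.6% for intraTAD3. Against wild type the share was 42.3% for 2xBorCTCF, 27.0% for 1xBorCTCF, 31.5% for i4CTCF, 35.1% for intraTAD2 and 48.8% for intraTAD3, and for 2xBorCTCF against 1xBorCTCF it was 25.3%. Depth-weighted, the shares against intraTAD2 were 46.5% for 2xBorCTCF, 54.2% for 1xBorCTCF, 41.7% for i4CTCF and 51.4% for intraTAD3. Against wild type they were 48.5% for 2xBorCTCF, 47.7% for 1xBorCTCF, 46.7% for i4CTCF, 45.0% for intraTAD2 and 58.9% for intraTAD3, and for 2xBorCTCF against 1xBorCTCF 31.3%. Excluding 0 was therefore not particular to this border. In size, the window's ratio of 0.32 in 2xBorCTCF against intraTAD2 was the highest of the 518, whose median absolute log2 ratio was 0.039. Depth-weighted, the ratio was 0.16 and the highest window reached 0.25. For 1xBorCTCF against intraTAD2 the window's 0.186 stood below a highest window of 0.192, with a lowest of -0.15 and a median absolute ratio of 0.041. Depth-weighted, its 0.13 stood below a highest window of 0.20. Against wild type, the window's 0.24 in 2xBorCTCF stood below a highest of 0.28, and 0.11 in 1xBorCTCF below 0.18. Depth-weighted these were 0.17 below 0.26 and 0.14 below 0.22.

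Contact across the border changed little with distance. In wild type it was 0.477 for pairs 10 to 50 kb apart, 0.482 for those over 50 and up to 100 kb, 0.470 up to 150 kb and 0.492 up to 200 kb, each with an interval that overlapped the others. In intraTAD2 the same bands stood at 0.499, 0.464, 0.429 and 0.454, and in intraTAD3 at 0.520, 0.493, 0.468 and 0.444. Pairs over 100 kb apart were lower than nearer ones in intraTAD2 by a log2 ratio of -0.12 (-0.22 to -0.017) and in intraTAD3 by -0.12 (-0.23 to -0.0046). These are the deepest maps. In the other 4 maps the interval of this ratio included 0.

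In 2xBorCTCF the bands stood at 0.495, 0.598, 0.548 and 0.577, and in 1xBorCTCF at 0.571, 0.525, 0.484 and 0.532. In i4CTCF they stood at 0.498, 0.474, 0.495 and 0.452. Over 100 and up to 150 kb, the ratio to intraTAD2 was 0.35 (0.16 to 0.55) in 2xBorCTCF and 0.17 (0.035 to 0.31) in 1xBorCTCF. Depth-weighted the ratios there were 0.30 and 0.25, the highest of the 4 bands for both maps. At 10 to 50 kb the ratio of 2xBorCTCF to intraTAD2 was -0.011 (-0.20 to 0.18). The change beyond 100 kb exceeded that within 100 kb by 0.16 (0.035 to 0.29) in 2xBorCTCF and 0.14 (0.036 to 0.25) in 1xBorCTCF when depth-weighted. By the mean of bin pairs these differences were 0.073 (-0.22 to 0.37) and 0.0083 (-0.16 to 0.18), so that a distance dependence held by one measure and not by the other. The farthest band held 175 to 514 contacts per map, and all of its ratios between maps had intervals that included 0 by both measures.

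**Figure D3:**
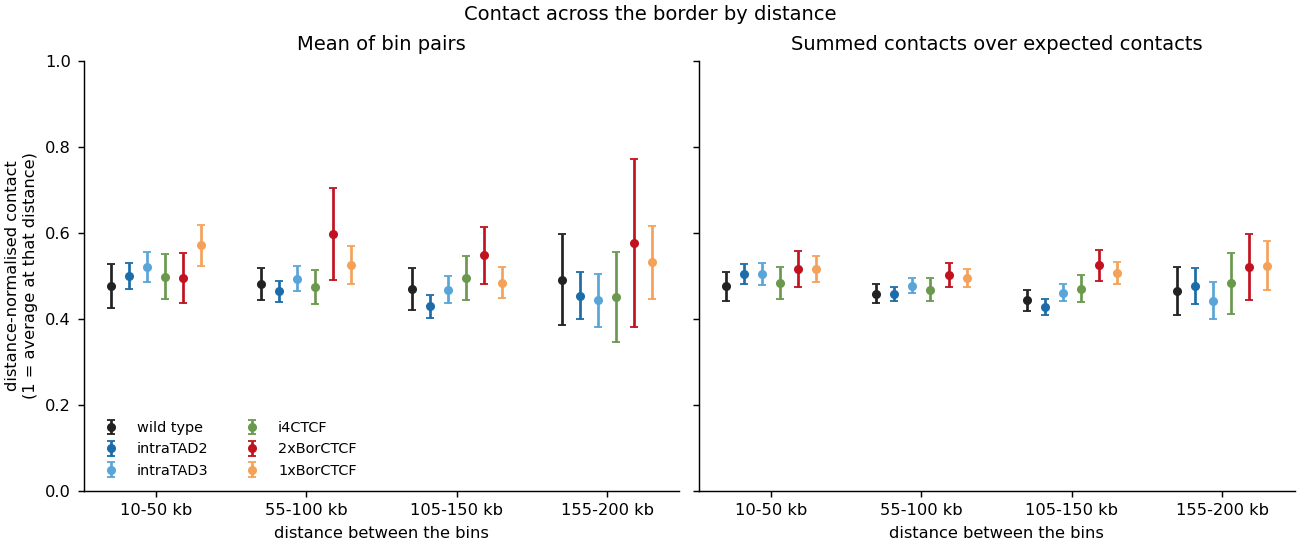
Distance-normalised contact across the border in 4 distance bands, as the mean of bin pairs (left) and depth-weighted (right), with 95% counting intervals for each of the 6 maps. All points lie between 0.427 and 0.598, with no steady rise or fall shared by the maps.

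The window was also divided into 4 blocks, by whether each bin lay within 50 kb of the border or beyond. The block that joins the far part of Rbm33 with the 50 kb next to the border on the Shh side, which holds Shh itself, had the lowest mean of the 4 in all 6 maps. It was 0.421 in wild type, 0.432 in i4CTCF, 0.434 in intraTAD3, 0.423 in intraTAD2, 0.484 in 1xBorCTCF and 0.482 in 2xBorCTCF. Both BorCTCF values lay above the other 4. Against wild type the log2 ratio was 0.19 (0.028 to 0.36) in 2xBorCTCF and 0.20 (0.063 to 0.34) in 1xBorCTCF, and against intraTAD2 it was 0.19 (0.042 to 0.33) and 0.19 (0.082 to 0.31). This was the block in which both BorCTCF maps exceeded both references beyond counting error by both measures. None of its used bins was thinly covered. In the block within 50 kb of the border on both sides, 1xBorCTCF exceeded intraTAD2 by 0.16 (0.063 to 0.27) by the mean. There 2xBorCTCF exceeded it by 0.11 (0.013 to 0.20) depth-weighted. By the mean, the difference in change between these blocks included 0 for both BorCTCF maps against both references. Depth-weighted, it excluded 0 in 1xBorCTCF only, at 0.14 (0.011 to 0.27) against intraTAD2.

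The opposite block joins the 50 kb next to the border on the Rbm33 side with the far part of the Shh side. It stood at 0.552 in wild type, 0.557 in i4CTCF, 0.541 in intraTAD3, 0.475 in intraTAD2, 0.557 in 1xBorCTCF and 0.705 in 2xBorCTCF. It holds all 5 thinly covered bins, and the 2xBorCTCF value has an interval of 0.544 to 0.865. The intraTAD2 map was lowest. Against it, i4CTCF was higher by 0.23 (0.0081 to 0.46), 2xBorCTCF by 0.57 (0.22 to 0.92), 1xBorCTCF by 0.23 (0.016 to 0.45) and intraTAD3 by 0.19 (0.0095 to 0.37). Depth-weighted these ratios were 0.19, 0.27, 0.18 and 0.11, with intervals above 0. Against wild type the intervals of the mean included 0 in all 5 mutant maps, and depth-weighted that of 2xBorCTCF excluded it, at 0.19 (0.034 to 0.34).

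Among single bins, the contact with the other side ranged from 0.391 to 0.606 on the Rbm33 side and from 0.356 to 0.679 on the Shh side in wild type. In 2xBorCTCF the ranges were 0.349 to 1.00 and 0.427 to 0.949. The 1.00 belongs to the outermost bin, 28,345,001, which had 52.0% of the contacts of the median bin, and a single pair of it, with 28,540,001, stood at 6.42 on 2 contacts. Depth-weighted, the Rbm33 side of 2xBorCTCF ranged from 0.428 to 0.650. On the Rbm33 side the bin next to the border, 28,440,001, had the highest geometric mean over the 6 maps, at 0.572 beside 0.571 in 28,425,001, and the bin at 28,370,001, inside Rbm33, had the lowest. The first of these is thinly covered, and depth-weighted it ranged from 0.415 to 0.572 over the maps, beside 0.516 to 0.589 in 28,425,001. The bin at 28,370,001 stood at 0.400 in wild type, 0.398 in i4CTCF, 0.375 in intraTAD3, 0.389 in intraTAD2, 0.424 in 1xBorCTCF and 0.349 in 2xBorCTCF. It was low in all 6 maps, and none of its 10 ratios between maps had an interval that excluded 0.

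On the Shh side the highest bin was 28,535,001, which holds the pseudogene Gm10290, and the lowest was 28,505,001. Both lie within the long noncoding RNA gene 9530036O11Rik. The highest bin stood at 0.593 in wild type, 0.501 in i4CTCF, 0.632 in intraTAD3, 0.449 in intraTAD2, 0.555 in 1xBorCTCF and 0.800 in 2xBorCTCF, on 43 to 129 contacts. Its value in 2xBorCTCF exceeded that in intraTAD2 by a log2 ratio of 0.83 (0.24 to 1.43), and its value in intraTAD3 exceeded that in intraTAD2 by 0.49 (0.081 to 0.91). The bin was ranked on a geometric mean that includes these maps, with 2xBorCTCF its highest. These ratios are therefore not independent of its choice and are given as a description. The lowest bin ranged from 0.309 in 1xBorCTCF to 0.458 in i4CTCF.

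Shh (28,456,840 to 28,467,101, minus strand) covers 3 bins. The bin with its start, 28,465,001, had a contact with the Rbm33 side of 0.420 in wild type, 0.381 in i4CTCF, 0.423 in intraTAD3, 0.436 in intraTAD2, 0.496 in 1xBorCTCF and 0.451 in 2xBorCTCF. The 1xBorCTCF value was the highest, above wild type by 0.24 (0.011 to 0.47). The bins at 28,460,001 and 28,455,001 ranged from 0.424 to 0.486 and from 0.448 to 0.576.

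Counted over bins, 34 of 39 were higher in 1xBorCTCF than in intraTAD2, 7 of them with an interval above 0 and none with one below. For 2xBorCTCF these counts were 33, 5 and 0, for i4CTCF 27, 1 and 0, and for intraTAD3 25, 3 and 0. The background, any bin of the captured region against 20 bins at the same offsets, excluded 0 in 11.6%, 10.2%, 10.0% and 12.2% in these 4 comparisons, either way. Against wild type the counts were 30, 4 and 0 in 1xBorCTCF (background 10.7%), 29, 2 and 0 in 2xBorCTCF (11.9%), 22, 0 and 0 in i4CTCF (10.8%), 23, 0 and 1 in intraTAD3 (13.8%) and 13, 0 and 0 in intraTAD2 (10.1%). In 2xBorCTCF against 1xBorCTCF the counts were 20, 2 and 1 (7.50%). Depth-weighted, the number of the 39 bins with an interval above 0 was 10 in 1xBorCTCF (background 14.2%), 7 in 2xBorCTCF (12.1%), 4 in intraTAD3 (13.9%) and 0 in i4CTCF (11.3%) against intraTAD2, with none below 0. Against wild type it was 10 in 1xBorCTCF (13.7%) and 7 in 2xBorCTCF (14.9%) with none below 0, 2 above and 1 below in intraTAD3 (16.9%), and 1 above and 1 below in i4CTCF (11.9%) and in intraTAD2 (12.0%). In 2xBorCTCF against 1xBorCTCF it was 1 (8.08%), with none below 0. Most of the 39 bins were thus higher in the BorCTCF maps than in either reference. The background covers intervals that exclude 0, and none is given for the number of bins above 0. Each bridging contact enters a bin of each side, so this number follows the higher window mean and is no separate result. In 1xBorCTCF the share of bins with an interval that excluded 0 was above the background against intraTAD2 by both measures. Against wild type it was above when depth-weighted only. In 2xBorCTCF against intraTAD2, 5 of 39 bins by the mean was near the background of 10.2%. Depth-weighted, 7 of 39 bins in 2xBorCTCF was above the 12.1% against intraTAD2 and near the 14.9% against wild type. By the mean, neither BorCTCF map was above the background against wild type. Bins of a side share their partners, so they are not separate observations.

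**Figure D4:**
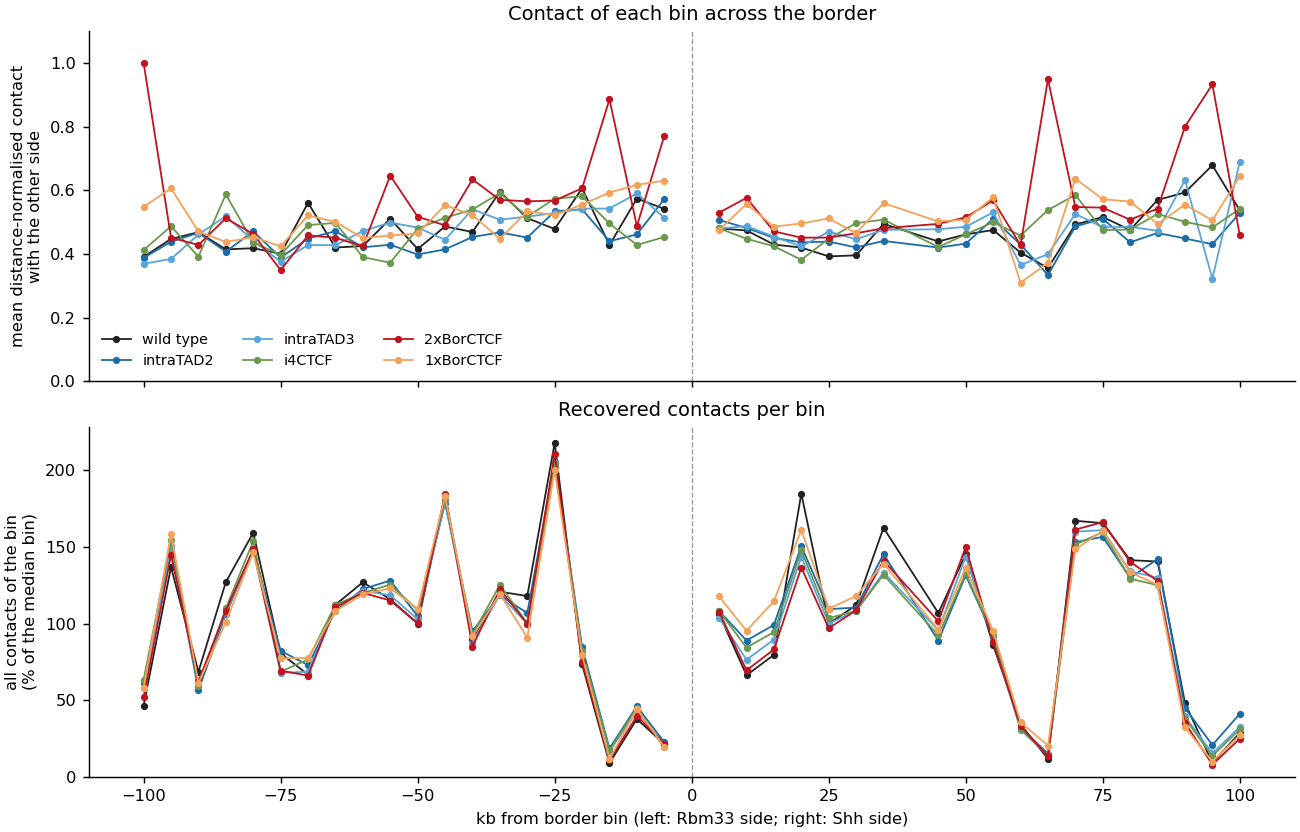
Mean distance-normalised contact of each bin with the other side of the border (top) and all recovered contacts of that bin as a percentage of the median bin (bottom), by distance from the border bin in kb, for the 6 maps. The highest 2xBorCTCF value, 1.00 at -100 kb, falls in a bin of 52.0% of the median, and its next 3 peaks, at -15, 65 and 95 kb, fall in thinly covered bins.

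Rbm33 (28,316,836 to 28,419,244) covers 15 of the 20 bins of its side, and the 5 bins next to the border hold no annotated gene. Contact of Rbm33 with the 3 Shh bins was 0.445 in wild type, 0.409 in i4CTCF, 0.457 in intraTAD3, 0.457 in intraTAD2, 0.504 in 1xBorCTCF and 0.502 in 2xBorCTCF. The BorCTCF maps were highest by both measures, and the lowest map was i4CTCF by the mean and wild type depth-weighted (0.404, beside 0.411 in i4CTCF). By the mean, the ratio of 1xBorCTCF to intraTAD2 was the one whose interval excluded 0, at 0.14 (0.0012 to 0.28), or 0.15 depth-weighted (0.026 to 0.27). Depth-weighted, the ratios to wild type also excluded 0 in 1xBorCTCF (0.28, 0.13 to 0.44), 2xBorCTCF (0.27, 0.087 to 0.45) and intraTAD3 (0.20, 0.055 to 0.35). Contact of Rbm33 with the gene-poor stretch beyond Shh was 0.467 in wild type, 0.486 in i4CTCF, 0.457 in intraTAD3, 0.425 in intraTAD2, 0.493 in 1xBorCTCF and 0.537 in 2xBorCTCF. Here intraTAD2 was lowest. Against it, i4CTCF was higher by 0.19 (0.054 to 0.34), 2xBorCTCF by 0.34 (0.16 to 0.52), 1xBorCTCF by 0.21 (0.10 to 0.33) and intraTAD3 by 0.11 (0.0021 to 0.21). Depth-weighted these were 0.15, 0.27, 0.23 and 0.091, each with an interval above 0.

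In i4CTCF the ratio to intraTAD2 differed between the Shh bins and the rest of the Shh side beyond counting error by the mean only. For contacts with the whole Rbm33 side, the ratio in the Shh bins minus that in the other bins was -0.25 (-0.44 to -0.063), or -0.14 depth-weighted (-0.28 to 0.0070). The same difference was -0.019 in 1xBorCTCF (-0.18 to 0.14) and -0.22 in 2xBorCTCF (-0.45 to 0.018) by the mean. Depth-weighted it was -0.026 (-0.14 to 0.090) and -0.020 (-0.17 to 0.13). Contacts of the stretch between Rbm33 and the border with the region beyond Shh were 0.520 in intraTAD2, 0.704 in 2xBorCTCF and 0.594 in 1xBorCTCF by the mean, but 0.534, 0.517 and 0.562 depth-weighted. The higher mean of 2xBorCTCF in this stretch was thus absent when bins were weighted by depth.

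Of the 380 pairs, 77 had at least 10 contacts in each map. Among these the lowest 3 all involved the bin with the start of Shh, paired with 28,415,001, 28,395,001 and 28,410,001 inside Rbm33. The first of them, 50 kb apart, stood at 0.326 in wild type, 0.372 in i4CTCF, 0.418 in intraTAD3, 0.449 in intraTAD2, 0.380 in 1xBorCTCF and 0.331 in 2xBorCTCF, on 12 to 52 contacts. Of the highest 5, 3 involved the bin at 28,425,001, just after Rbm33. The highest, 28,425,001 with 28,515,001, stood at 0.576 in wild type, 0.635 in i4CTCF, 0.672 in intraTAD3, 0.544 in intraTAD2, 0.641 in 1xBorCTCF and 0.701 in 2xBorCTCF, on 13 to 35 contacts. The 5 highest pairs, ranked by their geometric mean over the maps, were below the average at their distance in all 6 maps. Of the 77, 1 pair reached the average in any map: 28,405,001 with 28,520,001 stood at 1.02 in 2xBorCTCF on 16 contacts. The minimum of 10 contacts lets low values through mainly in deep bins, and thinner bins mainly where their contact is high. The bin with the start of Shh held 137% to 185% of the contacts of the median bin, and 28,425,001 held 73.4% to 84.7%. Both ends of this ranking thus depend on the minimum.

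The pair nearest the border, 28,440,001 with 28,450,001, was 10 kb apart and stood at 0.463 in wild type, 0.371 in i4CTCF, 0.424 in intraTAD3, 0.487 in intraTAD2, 0.517 in 1xBorCTCF and 0.573 in 2xBorCTCF, on 14 to 44 contacts. The farthest pair, 28,345,001 with 28,545,001, had 0 contacts in wild type, intraTAD3 and i4CTCF, 3 in intraTAD2 and 2 each in 2xBorCTCF and 1xBorCTCF. A count of 0 allows up to 3 contacts, which in this pair equals a value of 2.2 in wild type, 0.859 in intraTAD3 and 2.05 in i4CTCF. At 200 kb single pairs were thus not resolved.

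Single pairs differed 2-fold between maps in small numbers. With at least 20 contacts in both maps together, 23 of 213 pairs did so in 2xBorCTCF against intraTAD2, 13 higher and 10 lower. That is 10.8%, beside 5.60% of all captured pairs 10 to 200 kb apart. In 1xBorCTCF against intraTAD2 it was 15 of 239 (12 higher, 3 lower, background 3.04%), in i4CTCF 17 of 217 (6 and 11, 4.95%) and in intraTAD3 10 of 248 (8 and 2, 1.92%). Against wild type it was 16 of 227 in intraTAD2 (background 3.64%), 16 of 209 in intraTAD3 (3.69%), 9 of 134 in i4CTCF (4.60%), 9 of 132 in 2xBorCTCF (4.62%) and 14 of 195 in 1xBorCTCF, of which 13 were higher (3.81%). In 2xBorCTCF against 1xBorCTCF it was 14 of 177 (4.34%). The shares of the bridging pairs were above the background in all 10 comparisons, but these pairs also held fewer contacts. Their median was 29 to 46.5 contacts in both maps together, against 49 to 84 for all pairs tested, and the part of depth in these shares was not tested.

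The median log2 ratio of these bridging pairs was 0.18 in 2xBorCTCF and 0.17 in 1xBorCTCF against intraTAD2, beside -0.0057 and 0.0024 over all pairs tested. Against wild type it was 0.14 in both, beside 0.0032 and 0.021. In i4CTCF it was 0.060 against intraTAD2 and -0.023 against wild type. The largest ratio of 2xBorCTCF to wild type was that of 28,410,001 with 28,525,001, at 1.04 (20 contacts) against 0.277 (8 contacts). It also had the largest ratio of i4CTCF to wild type, at 0.657 (13 contacts), and of 2xBorCTCF to 1xBorCTCF, where it stood at 0.302 (10 contacts). The largest ratio of 1xBorCTCF to wild type was that of 28,360,001 with the Shh start bin, at 0.652 (23 contacts) against 0.139 (6 contacts). These pairs are the extremes of each comparison and rest on few contacts.

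Pairs with both bins on 1 side of the border, 10 to 95 kb apart and averaged equally over distances, show what the bridging pairs stand against. Within the Rbm33 side contact was 0.901 in wild type, 0.978 in i4CTCF, 0.919 in intraTAD3, 0.942 in intraTAD2, 0.927 in 1xBorCTCF and 0.955 in 2xBorCTCF, near the average of the region. Within the Shh side it was 0.666, 0.760, 0.712, 0.707, 0.733 and 0.716 in the same order, and across the border 0.477, 0.467, 0.499, 0.483, 0.539 and 0.546. Contact across the border was lower than within the Rbm33 side by 1.72-fold (1xBorCTCF) to 2.10-fold (i4CTCF), and lower than within the Shh side by 1.31-fold (2xBorCTCF) to 1.63-fold (i4CTCF). As the border was chosen for such a contrast, these folds are a description.

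**Figure D5:**
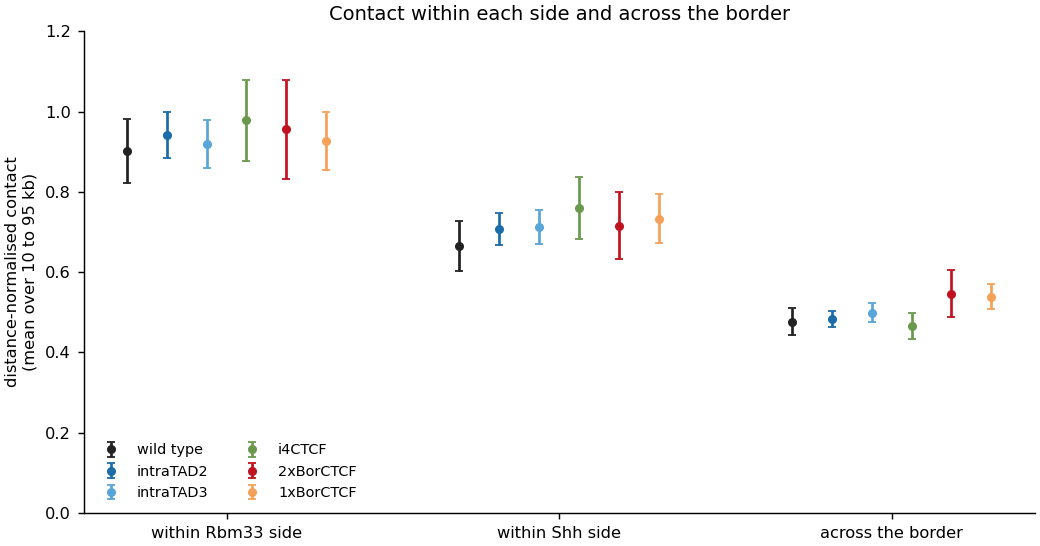
Distance-normalised contact within the Rbm33 side, within the Shh side and across the border, averaged over distances of 10 to 95 kb, with 95% counting intervals for the 6 maps. Contact across the border is lowest in every map, and its 2 highest values are those of 2xBorCTCF (0.546) and 1xBorCTCF (0.539).

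The change across the border was then set against the change within each side at these distances. Relative to the Rbm33 side and with distances averaged equally, the log2 ratio to intraTAD2 was 0.16 in 2xBorCTCF (-0.11 to 0.42) and 0.18 in 1xBorCTCF (0.0031 to 0.36). Depth-weighted it was 0.15 (0.058 to 0.24) and 0.065 (-0.0069 to 0.14), and by the plain mean of bin pairs 0.27 (0.049 to 0.49) and 0.16 (0.043 to 0.28). Relative to the Shh side and with distances averaged equally, it was 0.16 in 2xBorCTCF (-0.094 to 0.41) and 0.10 in 1xBorCTCF (-0.073 to 0.28). Depth-weighted it was -0.068 (-0.16 to 0.024) and -0.022 (-0.097 to 0.053), and by the plain mean 0.20 (-0.024 to 0.43) and 0.17 (0.042 to 0.30). Whether the change across the border exceeded that within a side thus depended on the averaging in both BorCTCF maps, and relative to the Shh side the sign did too. Depth-weighted contact within the Shh side was itself higher than in intraTAD2, by 0.17 in 2xBorCTCF (0.13 to 0.22), 0.099 in 1xBorCTCF (0.062 to 0.14), 0.10 in intraTAD3 (0.066 to 0.13) and 0.090 in i4CTCF (0.046 to 0.13). By that measure the BorCTCF maps were higher both across the border and within the Shh side. So was intraTAD3, at 0.049 (0.0020 to 0.096) over all bridging pairs. Relative to the Rbm33 side, intraTAD3 against intraTAD2 was 0.12 (0.016 to 0.23) by the plain mean and 0.061 (-0.0049 to 0.13) depth-weighted. Within the Rbm33 side the depth-weighted ratio of 2xBorCTCF to intraTAD2 was -0.045 (-0.082 to -0.0084).

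Bridging pairs also varied closer to counting error than pairs within a side. The variance of their contacts about the level expected for the window was 1.09 times (2xBorCTCF) to 1.35 times (wild type) that of counting alone. Within the Rbm33 side it was 2.00 to 3.99 times and within the Shh side 2.03 to 6.21 times, where the median pair was expected to have more contacts (24.0 to 86.2, against 6.24 to 17.8 across the border). Larger counts show uneven contact more readily, so these values do not show which pairs were more even. The part of depth in this difference was not tested.

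The window was also moved by up to 100 kb to either side in steps of 1 bin. Its lowest value lay between 10 kb before and 5 kb after the border bin in all 6 maps. It lay at the border bin itself in intraTAD2 and i4CTCF. As the border was chosen on low contact in these maps, this position is a description. Moved by 100 kb to either side, the window rose to between 0.863 and 1.02. The border bin had only 15.8% to 18.9% of the contacts of the median bin. Its contact was 0.516 to 0.804 with the Rbm33 side and 0.581 to 0.753 with the Shh side, and in each map the interval of their ratio included 0.

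At the outer edges of the window, the last bin inside on the Rbm33 side (28,345,001) stood at 0.391 in wild type, 0.412 in i4CTCF, 0.369 in intraTAD3, 0.388 in intraTAD2, 0.548 in 1xBorCTCF and 1.00 in 2xBorCTCF. The first bin outside (28,340,001) stood at 0.444, 0.459, 0.461, 0.480, 0.437 and 0.446 in the same order. On the Shh side the last bin inside (28,545,001) ranged from 0.459 to 0.690 and the first outside (28,550,001) from 0.496 to 0.581. On the Rbm33 side the first bin outside was higher than the last inside in wild type, i4CTCF, intraTAD3 and intraTAD2, and lower in both BorCTCF maps. The intervals of these bins overlapped in every map, so counting error does not separate them. The 1.00 of 2xBorCTCF has an interval of 0.462 to 1.54, and the same bin stood at 0.570 depth-weighted.

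The border at the other end of the Shh domain lies inside Lmbr1, and a window of the same shape there had 340 usable pairs. Contact across it was 0.548 in wild type, 0.558 in i4CTCF, 0.550 in intraTAD3, 0.554 in intraTAD2, 0.563 in 1xBorCTCF and 0.519 in 2xBorCTCF. The 2xBorCTCF map, the highest of the 6 at the Shh border, was the lowest here. The log2 ratio of 2xBorCTCF to intraTAD2 was larger at the Shh border by 0.41 (0.24 to 0.57), or 0.23 depth-weighted (0.15 to 0.32), and its ratio to wild type by 0.32 (0.13 to 0.50), or 0.21 (0.12 to 0.30). For 1xBorCTCF against intraTAD2 the difference between borders was 0.16 (0.059 to 0.27), or 0.13 depth-weighted (0.062 to 0.20). Between 2xBorCTCF and 1xBorCTCF it was 0.25 (0.072 to 0.42), or 0.10 (0.013 to 0.19). For 1xBorCTCF against wild type it was 0.070 (-0.059 to 0.20), or 0.11 depth-weighted (0.028 to 0.19). For intraTAD2, intraTAD3 and i4CTCF against wild type, and for i4CTCF and intraTAD3 against intraTAD2, the intervals of the difference included 0 by both measures. The log2 ratio of contact at the Shh border to that at the Lmbr1 border was -0.29 (intraTAD2) to -0.13 (1xBorCTCF) in 5 maps. In 2xBorCTCF it was 0.12 (-0.034 to 0.27) by the mean and -0.12 (-0.20 to -0.052) depth-weighted, so that the order of the borders turned with the measure there.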

How the data were processed

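Capture Hi-C contact maps of limb buds were used, 1 library for each of 5 mutant genotypes and 1 wild-type map. The authors deposited 1 signal value per pair of 5 kb bins, a contact frequency after balancing. Per the file names, the authors kept reads of mapping quality 30 or more and balanced each map by the Knight-Ruiz method. Bowtie2 2.2.6 and both mm9 and mm10 appear in the submitters' processing notes, with no role given. Coordinates matched mm10 gene positions (RefSeq, GRCm38). The wild-type values are 1 column that belongs to no sample.

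Balanced signals equal whole contacts times a factor of each bin. Factors and contacts were recovered from repeated ratios (Python 3.11.15, numpy 2.4.6, pandas 2.3.3), with 100% of values whole within 0.01. In intraTAD3, 5 pairs were not recovered. The recovery and intervals were tested on simulated data, drawn with counting error alone around the pooled pattern of the maps. Intervals were judged around the mean of the simulated estimates, with bin factors held fixed. A constant bias, or error of the balancing factors, could therefore not show. Bridging pairs varied 1.09 to 1.35 times as much as counting alone, and the simulation did not cover that excess. Bins whose number of partners fell under 25% of the median in at least 1 map, 10 of 558, were dropped from all maps. Unlisted pairs counted as 0 contacts. Intervals are weighted Poisson intervals of the contacts, cover counting error only, and ligated reads without molecular identifiers may not be independent. No test was possible with 1 library per genotype. Depth-weighted contact was added after seeing the data.

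Named bins were those of Shh and Rbm33 and the highest and lowest of each side. Named pairs were the 5 highest and 3 lowest with 10 contacts in each map, the nearest, the farthest, and the extreme ratios with 20 contacts in both maps. Members and lists were chosen with earlier results of these data known. Cutting sites, base composition and CTCF motif letters of the bins were not analysed here.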

Additional observations from a re-analysis of the deposited data

How the results depend on the processing

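The log2 ratio of contact across the border was recomputed under 9 alternatives, 3 of them chosen after seeing the data. The interval stayed above 0 in 9 of 9 for 2xBorCTCF against wild type (0.081 to 0.25), 2xBorCTCF against intraTAD2 (0.11 to 0.39) and 1xBorCTCF against intraTAD2 (0.10 to 0.20), in 7 of 9 for intraTAD3 against intraTAD2 and in 6 of 9 for 1xBorCTCF against wild type. Without balancing, intraTAD3 against intraTAD2 reversed to -0.038, 2xBorCTCF against 1xBorCTCF was -0.088 and 2xBorCTCF against intraTAD2 was 0.11. Pairs past 2-fold then numbered 27 in 1xBorCTCF and 14 in i4CTCF against wild type, beside 14 and 9 with balancing. No share over all captured pairs is given for unbalanced values, so these 2 counts cannot be read against a background. Depth-weighted, 2xBorCTCF against intraTAD2 was 0.16. Scaled by map total, i4CTCF against intraTAD2 was -0.094. Of its 9 alternatives 2 had an interval above 0 (up to 0.17) and 1 below, and of those of 2xBorCTCF against 1xBorCTCF 1 was above (0.19) and 1 below. The cause was not tested. No paired analysis was possible because each genotype had 1 library.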
